A study of Mus musculus with 8 samples.

Results

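The regions described here are stretches of open chromatin on mouse chromosome 15 that flank the domain of Myc, the proto-oncogene that drives growth in early T cells and in T-cell leukaemia. They are the merged ATAC-seq peaks that lie wholly within 10 Mb on the near side of Myc, chr15:51985341-61985341, or within 10 Mb beyond the end of its 2 Mb domain, chr15:63985341-73985341 (GRCm38, mm10). Peaks of any of the libraries that overlapped by 1 bp or more were joined. There were 1199 such regions of 180321 in all, 655 in the upstream flank and 544 in the downstream flank, where upstream and downstream follow the direction of Myc.

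ATAC-seq marks open chromatin through the insertion of sequencing adapters by a transposase. Of 8 samples in the series, 4 are libraries of C57BL/6 DN3 thymocytes, the stage at which T-cell precursors rearrange their T-cell receptor beta genes. Of these, 2 carried homozygous mutations of GATA site 1 and site 2 in N-Me, the Notch-Myc enhancer downstream of Myc, and 2 had a wild-type N-Me. The labels used here state neither the age of the mice, nor how the mutation was made, nor whether replicates came from separate animals, so p-values measure only the spread between these libraries. The 4 leukaemia samples were not analysed here.

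Mammalian chromosomes fold into domains within which enhancers and promoters meet more often than across the borders. Myc lies in a gene-poor domain and is served by enhancers scattered over it. The flanks carry other genes: general ones for chromatin, transcription and protein handling, signalling genes used in blood cells, and genes of bone, thyroid, nerve and other tissues, with gene deserts between them.

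Promoter sequences could be read for few genes of the flanks, and those under an open region are shown. Of 32 promoter windows of 28 genes in the flanks, 4 were covered by an open region, all of them at long non-coding RNA genes and all in regions called in all 4 libraries. The windows run from 250 bases before to 50 after the annotated start (RefSeq, GRCm38.p6). Capitals mark matches to any of the motifs searched on both strands, and these matches did not overlap one another. The motifs were AGATAA, likewise TGATAA, then AGATAG and lastly TGATAG for GATA factors, TGTGGT for RUNX, CCGGAAG for ETS, CAGCTG or else CAGGTG for E proteins, CACGTG for the E-box that MYC binds, GTGGGAA for RBPJ and CCACNAGNNGGC for CTCF. The Gm41331 window is shown because it sits in one of the 10 strongest shared regions of the flanks, and the other windows for comparison.
Gm41331, chr15:60141576-60141875, plus strand: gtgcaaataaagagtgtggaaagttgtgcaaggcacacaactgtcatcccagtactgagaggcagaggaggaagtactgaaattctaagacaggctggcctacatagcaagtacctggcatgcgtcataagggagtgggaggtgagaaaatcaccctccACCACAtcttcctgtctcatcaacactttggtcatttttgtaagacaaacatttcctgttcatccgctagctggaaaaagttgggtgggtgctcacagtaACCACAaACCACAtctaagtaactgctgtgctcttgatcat
Gm36617, chr15:59245957-59246256, plus strand: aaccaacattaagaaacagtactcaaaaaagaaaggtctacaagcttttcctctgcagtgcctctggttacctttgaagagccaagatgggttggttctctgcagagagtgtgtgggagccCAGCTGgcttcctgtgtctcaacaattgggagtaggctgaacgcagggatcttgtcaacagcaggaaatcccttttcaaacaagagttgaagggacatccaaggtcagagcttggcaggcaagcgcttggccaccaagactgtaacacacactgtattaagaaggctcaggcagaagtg
Gm31342, chr15:67039343-67039642, plus strand: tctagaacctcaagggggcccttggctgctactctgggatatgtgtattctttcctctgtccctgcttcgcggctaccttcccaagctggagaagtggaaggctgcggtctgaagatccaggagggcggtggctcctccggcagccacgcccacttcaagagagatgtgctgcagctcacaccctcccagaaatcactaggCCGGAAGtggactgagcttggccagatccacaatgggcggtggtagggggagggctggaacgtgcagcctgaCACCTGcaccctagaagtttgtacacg

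The Gm41331 window held 3 RUNX matches, each read as ACCACA on the printed strand, and a second annotated start of the gene gave a window with the same matches. A RUNX match was present in 16.8% of all 32851 promoter windows in the table. Gm36617 had 1 E protein match, present in 32.9% of windows, and Gm31342 had 1 ETS match and 1 E protein match, with ETS in 8.86% of windows. No GATA, E-box, RBPJ or CTCF letters from the list were found in these windows, against 29.8%, 7.15%, 6.38% and 0.648% of all windows. The Gm41331 region spans chr15:60141521-60142177, 1.84 Mb upstream of Myc. The authors' fold enrichment there, the library's pileup over its local background, was 8.18 and 9.15 in the mutant lists, against 11.1 and 10.04 in the wild-type lists. Both mutant values were below both wild-type values, a pattern whose share over all shared regions was not counted. Such fold is a property of a peak within its own list, so it is described here and not tested across genotypes.

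Each library has its own peak list, with no read counts, so depth is unknown and a missing peak means only that none was called. All 10 DN3 marker genes, Rag1, Ptcra and Notch1 among them, showed a peak no more than 1 kb from an end of the gene in all 4 libraries. Of 15 markers of other cells, 8 did so too, and Gata1, Hba-a1 and Ncr1 had none in any library. Csf1r, Mpo and Psmb11 had one in no mutant and in both wild-type libraries. Over all protein-coding genes, 67.1% had such a peak in all 4 libraries and 27.0% in none. A peak in both wild-type and no mutant libraries was found for 1.95% of them. A peak near a gene does not show its expression, and the part of other cells in the results was not tested. The mutant lists had a longer shortest peak (73 and 87 bp, against 64 and 65 bp in wild type) and a longer smallest gap between peaks (293 and 349 bp, against 257 and 261 bp), so closer peaks were not listed apart there.

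Mutant libraries had fewer and wider peaks, over the whole lists as well as in the flanks. The full lists held 121022 and 119023 peaks in mutant, against 169255 and 156372 in wild type, and their median width was 444 and 421 bp in mutant, against 284 and 302 bp in wild type. In the flanks the mutant lists held 876 and 837 peaks there, against 1109 and 1032 in the wild-type lists. The groups did not overlap: the mean was 856.5 ± 27.6 in mutant and 1070.5 ± 54.4 in wild type (SD, n = 2 each, exact two-sided permutation p = 0.3333). With 2 libraries against 2, no lower p can be reached than 0.3333. Median peak width was 468.5 and 442 bp in mutant, against 295 and 324 bp in wild type (exact permutation p = 0.3333, n = 2 each). With a common minimum length (87 bp) and joining gap (348 bp) in all lists, the means were 839.5 in mutant and 967 in wild type. With the same number of peaks taken from each list, those of lowest p, the difference in number turned round, to 848 in mutant and 779 in wild type on average.

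Peaks covered 538 and 492 kb of the flanks in mutant, against 466 and 469 kb in wild type (exact permutation p = 0.3333, n = 2 each). Both mutant libraries lay above both wild-type libraries. Over all chromosomes the covered length was 72.3 and 69.3 Mb in mutant and 72.1 and 70.8 Mb in wild type, where the groups overlapped. The flanks held 0.724% and 0.703% of the peaks of the mutant lists, against 0.655% and 0.660% of the wild-type lists. The covered base pairs of the flanks overlapped with a Jaccard index of 0.777 between the mutant lists, 0.742 between the wild-type lists and 0.627 to 0.667 between lists of different genotype. The index was not computed outside the flanks, and mutant peaks were wider over the whole lists too. The index therefore does not show a difference particular to the flanks. Covered length and share of peaks were not compared with other stretches of the same length, so whether their differences are particular to the flanks was not tested.

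**Figure D1:**
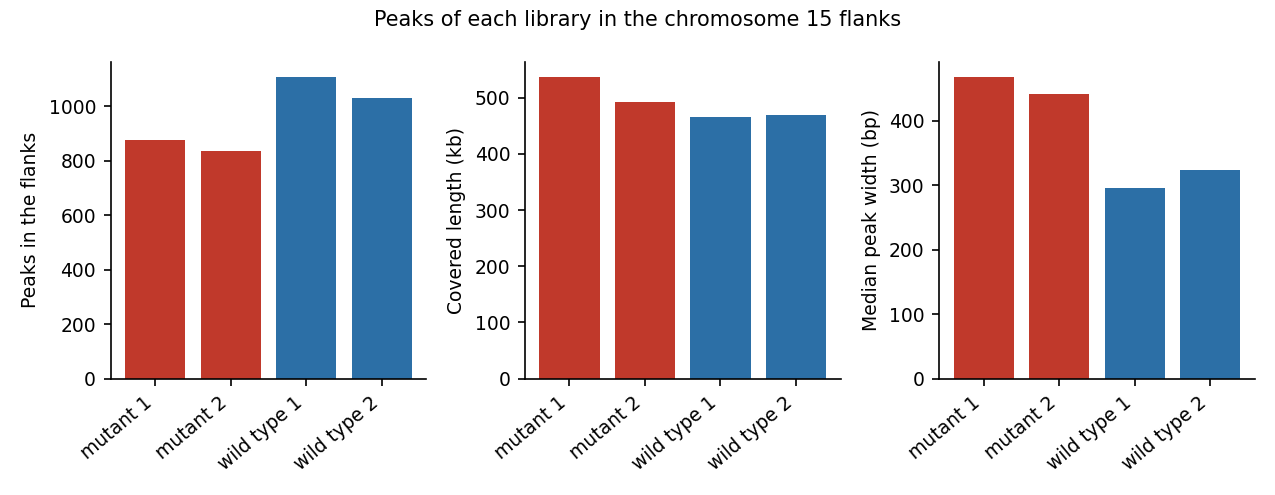
Number of peaks, covered length in kb and median peak width in bp in the flanks, 1 bar per library (mutant red, wild type blue). Both mutant libraries had fewer peaks, more covered length and wider peaks than both wild-type libraries.

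Most of the flank regions were shared. Of the 1199, 700 (58.4%) were called in all 4 libraries, against 56.7% of all regions, and 227 (18.9%) in 1 library only. These 700 had a median width of 636 bp, and the median of their lowest fold in any library was 3.25, close to the 608 bp and 3.36 of all regions called in 4 libraries. Of them, 79 lay 1 kb or less from an end of a protein-coding gene, 367 inside such a gene and 254 outside. Among all 700, 114 were over 100 kb from any such end.

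Regions called in both mutant and no wild-type libraries were more frequent in the flanks than over the genome. They numbered 28 of the 759 flank regions that both mutant libraries held (3.69%, exact binomial 95% interval 2.47 to 5.29), against a background of 1.75% over all 107000. Among chromosomes the share was 4.11% on Y, which held only 73 regions of both mutant libraries, and 1.23% (chromosome 9) to 2.61% (X) on the other 20, and the remainder of chromosome 15 had 1.51% of 3712. The upstream flank had 17 of 419 (4.06%) and the downstream flank 11 of 340 (3.24%). Intervals cover counting error only, and neighbouring regions are not independent, so no test was made.

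These regions made up a larger share near the domain, in bands of distance that were chosen after their values were seen. Within 2 Mb of either edge of it they were 12 of 114 (10.5%, interval 5.56 to 17.7), and from 2 to 10 Mb they were 16 of 645 (2.48%, interval 1.42 to 3.997). The first 2 Mb upstream had 4 of 42 (9.52%) and the first 2 Mb downstream 8 of 72 (11.1%), on either side of a domain with 10 of 102 (9.80%). By number, the upstream flank had 2 in each of the first 2 Mb and 5 at 2 to 3 Mb. Further out, the upstream flank had 8 of 242 (3.31%, interval 1.44 to 6.41) at 2 to 5 Mb. At 5 to 10 Mb it had 5 of 135 (3.70%, interval 1.21 to 8.43). The downstream flank had 2 of 136 (1.47%, interval 0.179 to 5.21) and 1 of 132 (0.758%, interval 0.0192 to 4.15) at the same distances. The intervals of the 2 sides overlapped. With peaks of fold 4 or more only 31 regions of both mutant libraries were left within 2 Mb. Of these, 1 (3.23%) had no wild-type peak of that fold, as had 8 of 225 (3.56%) further out. Those without one all lay in regions that held a wild-type peak in the full lists. Taken as 5 Mb, the nearest stretch had 4.23% upstream and 4.81% downstream. Elsewhere on chromosome 15, in 15 blocks of 5 Mb with at least 20 regions of both mutant libraries, the share ran from 0% to 14.9% with a median of 1.58%. The highest of these, 13 of 87, lay 5 to 10 Mb beyond the far upstream border, so a high share also occurred on this chromosome away from the domain.

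Over the genome, distance from genes moved with this share. Of regions of both mutant libraries, those over 100 kb from an end of a protein-coding gene were called in mutant only in 3.23% of 10603 cases, against 1.83% at 1 to 100 kb and 0.450% within 1 kb. Counted over regions of any library, those over 100 kb from such an end made up 37.1% of the flank regions within 2 Mb of the domain, 13.3% of those at 2 to 10 Mb and 10.6% of all regions. Of regions of both mutant libraries within 2 Mb of the domain, the share was 12.2% of 41 over 100 kb from a gene end and 10.4% of 67 at 1 to 100 kb. At 2 to 10 Mb from the domain it was 2.41% of 83 and 2.86% of 489 at the same distances from genes. Strength moved with the share too, where strength was the highest fold in any library that called the region. Regions called in fewer libraries have fewer values to draw it from, so class and share are not independent. Among regions of the lowest 3 of 10 classes of highest fold the share was 21.2% of 80 in the flanks and 11.9% of 9687 overall. In the next 4 classes it was 2.94% of 340 in the flanks and 1.60% of 44209 overall. In the highest 3 classes it was 0.295% of 339 in the flanks and 0.0264% of 53104 overall.

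**Figure D2:**
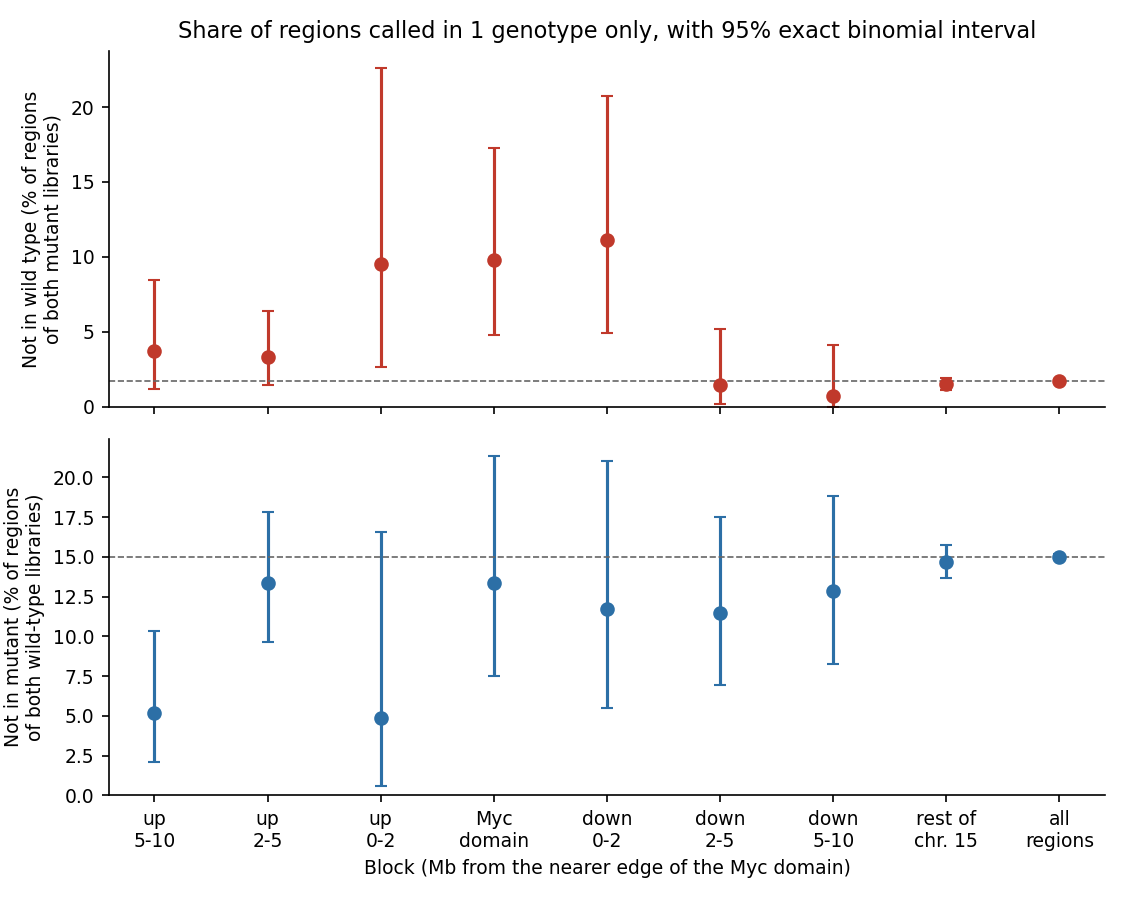
Percentage of regions called in 1 genotype only, by block, with exact binomial 95% intervals: above, of regions of both mutant libraries, those in no wild-type library, and below, of regions of both wild-type libraries, those in no mutant library. Dashed lines mark the shares over all regions (1.75% and 15%), and the blocks within 2 Mb of the domain and the domain itself stand at 9.52% to 11.1% in the upper panel.

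Open regions held by both wild-type libraries and neither mutant library were less frequent in the flanks than over the genome. They numbered 97 of 874 (11.1%, interval 9.09 to 13.4), against a background of 15% over all 134965. Among chromosomes the share was 8.75% of 80 regions on Y and 12.3% (X) to 16.9% (chromosome 8) on the other 20, and the remainder of chromosome 15 had 14.7%. The share was 10.2% of 469 upstream and 12.1% of 405 downstream. It was lowest within 2 Mb upstream (2 of 41, 4.88%) and at 5 to 10 Mb upstream (7 of 136, 5.15%), and 13.4% of 292 between them. None of the 84 gene-end regions of both wild-type libraries was among them, against 6.24% of such regions over the genome.

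Leaving out 1 library changes such counts by construction, since fewer lists must agree. The share called only in mutant was 7.77% without mutant 2, 6.11% without mutant 1, 6.33% without wild type 1 and 5.14% without wild type 2, where it was 4.11%, 3.83%, 3.66% and 2.56% over all regions. For regions called only in wild type it came to 14.7%, 16.6%, 17.0% and 20.2% in the same order, against 19.3%, 19.99%, 21.03% and 25.4% over all regions. The flanks thus stayed above all regions in the mutant-only share and below them in the wild-type-only share whichever library was left out.

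**Figure D3:**
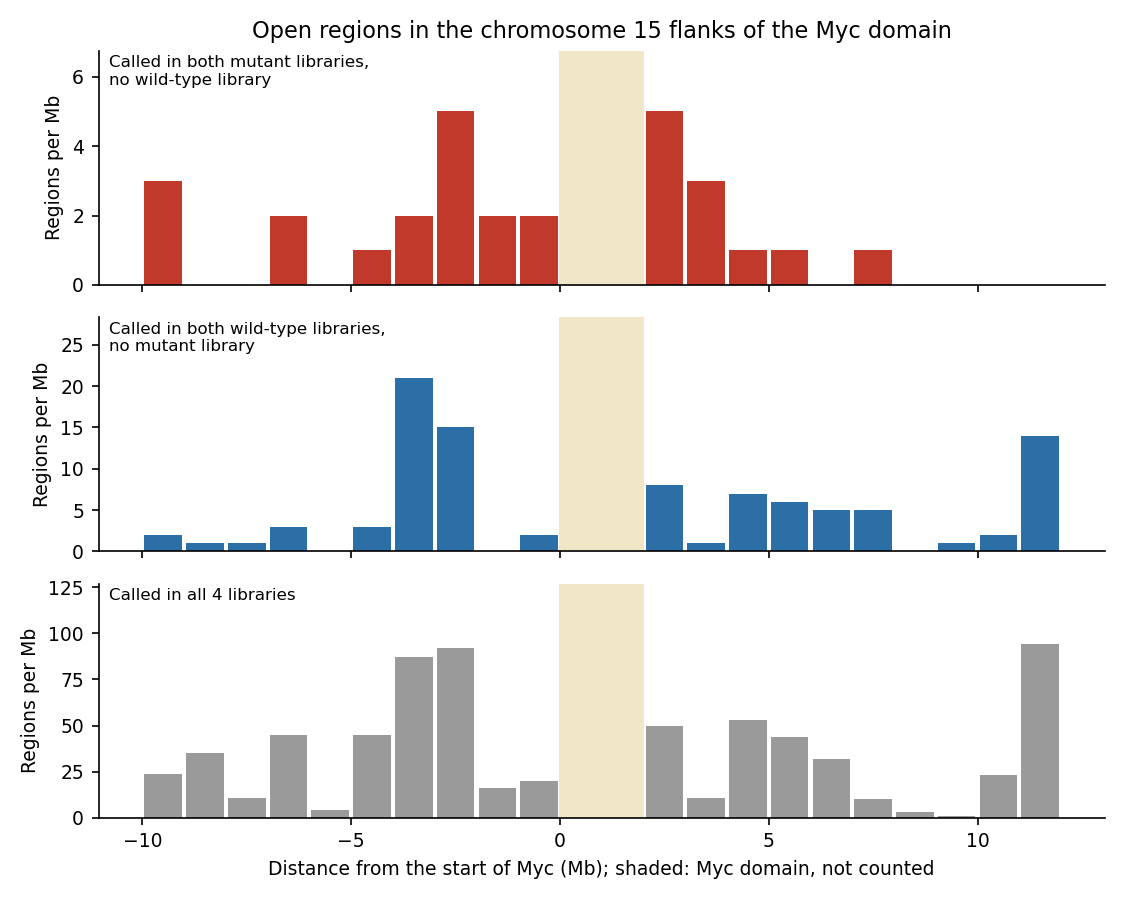
Regions per Mb by distance from the start of Myc, for regions called in both mutant and no wild-type libraries, in both wild-type libraries alone, and in all 4. Mutant-only regions peak at 5 per Mb at 2 to 3 Mb upstream of Myc and in the first Mb beyond the domain, whereas wild-type-only regions peak at 21 at 3 to 4 Mb upstream.

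The number of open regions varied along the flanks, from 3 to 161 per Mb. The Mb from 2 to 3 Mb upstream of Myc held 161 regions, that from 3 to 4 Mb 153, and that from 9 to 10 Mb beyond the domain, where Chrac1, Ago2 and Ptk2 lie, 150. From 6 to 7 and from 7 to 8 Mb beyond the domain there were 3 each. The number of protein-coding genes with an end in a Mb did not follow the count throughout: 5 genes went with 161 regions at 2 to 3 Mb upstream and with 17 at 7 to 8 Mb upstream, and the Mb of St3gal1 held 75 regions with 1 gene. The longest stretch with no region in any library was 942 kb, chr15:69968890-70911021, and no protein-coding gene overlaps it. Upstream, 648 kb around Slc22a22 were empty, as were 356 kb (chr15:56336689-56693073) that end inside Has2, the gene of a hyaluronan synthase of connective tissue. Between Trib1 and Lratd2 on the Myc side, 498 kb (chr15:60195327-60693727) held none.

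The 28 regions called only in mutant were 121 to 830 bp wide with a median of 336 bp, against a median of 254 bp over all 1876 such regions. Their lower fold of the mutant lists was 1.64 to 3.67 with a median of 2.31, against 2.16 over all of them. None reached fold 4 in both lists, as 12 (0.640%) of all such regions did. None lay at a gene end, 12 lay inside genes and 16 outside. For 7 of them a wild-type peak lay within 1 kb, so for the others no called wild-type peak was that close.

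The strongest by its lower fold lay 52.1 kb from an end of Efr3a, which holds a lipid kinase complex at the plasma membrane. It spans chr15:65734606-65734915 and had fold 3.69 and 3.67 in mutant 1 and mutant 2, with −log10 q of 10.8 and 8.33, and the nearest wild-type peak was 3143 bp away. Next came chr15:59916739-59917083, outside protein-coding genes 2.07 Mb upstream of Myc, with fold 3.64 and 4.81. A region of 471 bp inside Nsmce2, a SUMO ligase of the SMC5/6 complex of DNA repair, had fold 3.38 and 3.33 (chr15:59532788-59533258). The replicates were close in the regions by Efr3a and in Nsmce2, and mutant 2 was higher in the other.

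In the downstream flank, a 171 bp region inside Cyrib, a brake on RAC1 signalling to actin, lay just past the border of the Myc domain (chr15:63989840-63990010). Its fold was 3.096 and 4.17 in mutant 1 and mutant 2, and a wild-type peak lay 1572 bp away. Asap1, an Arf GTPase-activating protein of the actin cytoskeleton, had 3 mutant-only and 5 wild-type-only regions among the 52 in its body, and Nsmce2 had 3 and 4 among 46. Over all regions, whichever libraries held them, 1.04% were mutant-only and 11.2% wild-type-only, and over the flanks 2.34% and 8.09%. The Asap1 region chr15:64141686-64142515 was the widest of the 28, with fold 2.41 and 2.78. The remaining named regions lay inside Phf20l1 (2.51 and 2.89), Khdrbs3 (3.36 and 2.47) and Asap1 again (2.65 and 2.38), and outside genes 179 kb from 4933412E24Rik (2.71 and 3.12) and 178 kb from Slc30a8 (2.63 and 2.46).

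The 97 regions called only in wild type were narrower: the medians were 168 bp for width and 2.37 for the lower fold, close to the 176 bp and 2.36 of all 20194. Of them, 54 lay inside genes and 43 outside, and for 26 a mutant peak lay within 1 kb. Only 1 had fold 4 or more in both lists, a 143 bp region inside Lrrc6, a gene of ciliary dynein assembly (chr15:66442455-66442597), with fold 5.66 and 4.85 in wild type 1 and wild type 2. The nearest mutant peak was 2755 bp away. A 147 bp region 3.94 kb from an end of Tmem71 had fold 5.20 and 3.81 (chr15:66522123-66522269).

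Fer1l6, a ferlin gene, was the nearest gene of 4 of the 10 strongest wild-type-only regions, with fold from 3.21 to 4.34, and its body held 5 such regions among 20 and no mutant-only region. Mtss1, a regulator of actin and membrane curvature, had 5 among 33 and likewise none of the other kind. Over all regions, whichever libraries held them, 11.2% were wild-type-only and 1.04% mutant-only. At that share, the lack of mutant-only regions in these bodies is no result about these genes. The closest to Myc of the 10 lay 214 kb upstream of it and overlapped the long non-coding RNA gene D030024E09Rik (chr15:61770748-61771127, 380 bp). Its fold was 3.78 in wild type 1 and 3.89 in wild type 2, and the nearest mutant peak was 62448 bp away. The others of the 10 lay nearest to Fam83a, Sqle and Rnf139, with fold from 3.002 to 4.19.

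The strongest shared region lay over an end of 9130401M01Rik and had fold 10.9 and 11.7 in the mutant lists, against 13.6 in both wild-type lists (chr15:58033588-58034534). Next was a region far from genes, 139 kb from Sntb1 at chr15:56046699-56047328, with fold 10.8 and 9.88 in mutant and 10.1 and 9.83 in wild type. Here the libraries of the genotypes overlapped. Others lay at ends of Taf2 (a subunit of the general transcription factor TFIID), Efr3a and Chrac1 (a histone-fold chromatin protein), 82.1 kb from Trib1, inside Slc45a4 and Mroh5, and 49.9 kb from Zhx2. Trib1 encodes a pseudokinase that targets C/EBP proteins for degradation. The region 82.1 kb from Trib1 had fold 8.03 and 8.90 in mutant, against 12.7 and 10.9 in wild type. Whether that region acts on Trib1 was not tested.

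The widest region, 3471 bp (chr15:72250085-72253555), was called in wild type 2 alone, with fold 3.23. The other 4 of the 5 widest were called in all 4 libraries, at an end of Zhx2 (3267 bp) and inside Nsmce2 (3222 bp), Khdrbs3 (2792 bp) and Fam91a1 (2700 bp).

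**Figure D4:**
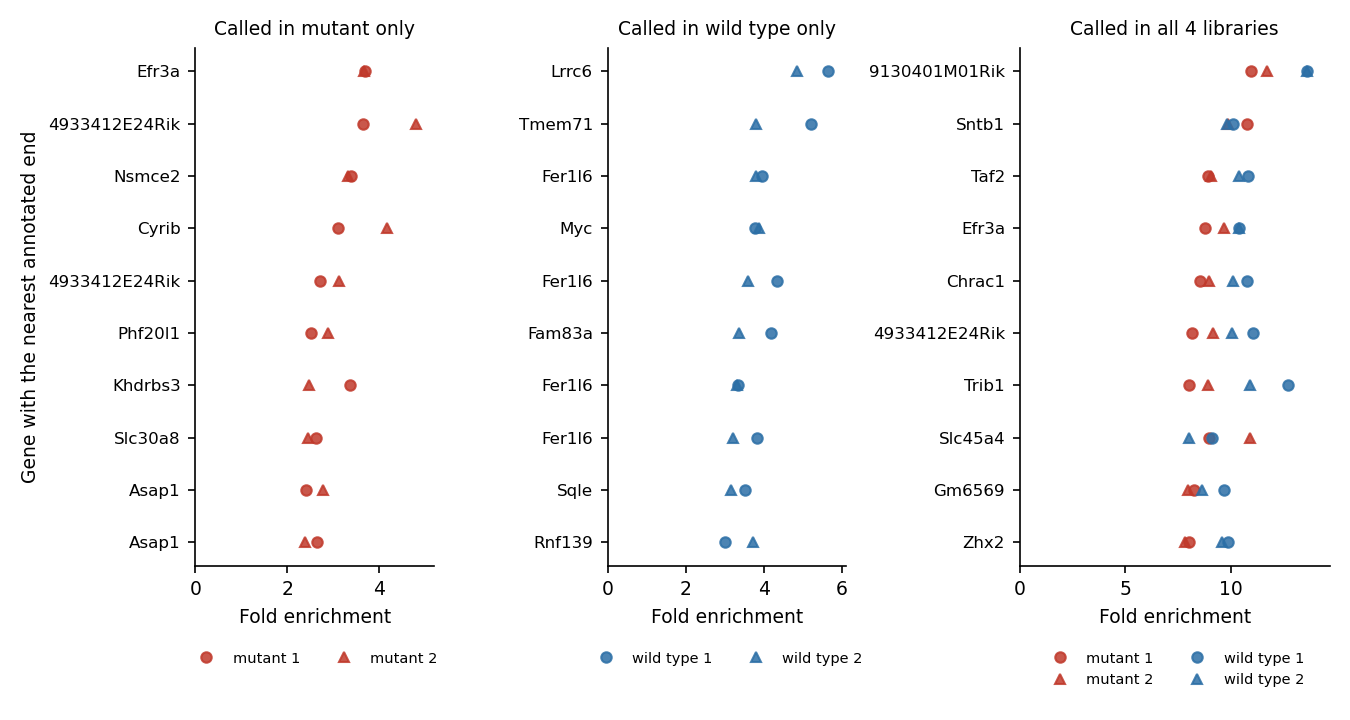
The authors' fold enrichment of the 10 leading regions called only in mutant, only in wild type and in all 4 libraries, 1 row per region named by the gene with the nearest end (mutant red, wild type blue, circles replicate 1, triangles replicate 2). Shared leading regions reach fold 7.84 to 13.6, and the regions called in 1 genotype reach at most 4.81 in mutant and 5.66 in wild type.

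Of 79 protein-coding genes with an end in the flanks, 60 (75.9%) showed a peak at or near an end, at most 1 kb away, in all 4 libraries, against 67.1% of all 21887 such genes. Another 13 had none in any library. No gene had an end called in both libraries of 1 genotype and in neither of the other, as 33 genes had in mutant only and 426 in wild type only over the genome. Those shares are 0.151% and 1.95%, so 0 of 79 is no result about these genes.

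Among genes of chromatin, transcription and translation, 15 of 16 (93.8%) had an end called in all 4 libraries, against 67.1% of all protein-coding genes. The gene lists were written with earlier results of these data known, and differences from that share were not tested. Taf2 had fold 8.94 and 9.08 in mutant, against 10.8 and 10.4 in wild type. Atad2, a bromodomain ATPase that works with MYC and E2F factors, had fold 5.97 and 6.16 in mutant and 6.77 and 6.60 in wild type. In both genes the mutant values lay below the wild-type ones, as they also did at ends of Med30, Derl1 and Rnf139. The same held at ends of genes of other lists, such as Ext1, Samd12, Deptor and Kcnq3. At ends of Dscc1, Zhx2 and Ptk2 the groups overlapped. The share of all shared regions with either pattern was not counted, so neither pattern is a result about the genes named here. Med30, of the Mediator complex, Dscc1, of sister chromatid cohesion, Mrpl13, Mtbp and Ago2, the slicer of the microRNA pathway, were also called throughout. The exception was Rad21, a subunit of the cohesin ring that holds chromosome loops. Its lower end lies outside the flank and had a peak in both mutant libraries and in wild type 1. The region nearest to its upper end, chr15:51990423-51992411, lay 1127 bp from it, overlapped an end of Gm52217, and was called in all 4 libraries with fold 4.51 and 4.71 in mutant and 7.57 and 6.54 in wild type.

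Among signalling and surface genes used in blood cells, 15 of 16 (93.8%) had an end called in all 4 libraries, against 67.1% of all protein-coding genes. Sla, an adaptor that lowers T-cell receptor levels on thymocytes, had fold 3.16 and 2.88 at its end in mutant, against 3.86 and 3.53 in wild type. Of 13 regions in its body, 12 were called in all 4 libraries and 1 only in wild type. St3gal1, a sialyltransferase that caps O-glycans on T cells, had fold 4.26 and 4.52 in mutant and 5.11 and 4.60 in wild type, and 3 of its 22 body regions were called only in wild type, near the 11.2% of all regions. Ptk2, the focal adhesion kinase, had 5.09 and 5.79 in mutant and 5.16 and 5.86 in wild type, where the groups overlapped. Deptor, an inhibitor of mTOR, Ndrg1, Cyrib, Dennd3 and Ptp4a3 were called in all 4. Mtss1 had no end called, its nearest region lying 1290 bp away, yet 24 of its 33 body regions were called in all 4.

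Of 18 genes of membrane traffic, metabolism and protein turnover, 13 (72.2%) had an end called throughout, near the 67.1% of all protein-coding genes. Among them were Derl1, of protein export from the endoplasmic reticulum, and Sqle, of cholesterol synthesis. Sqle had fold 6.25 and 7.37 in mutant and 9.22 and 8.74 in wild type. Mal2 was called in wild type 1 alone, and Slc30a8, Anxa13, Fam91a1 and Fer1l6 in none.

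Of 18 genes of other tissues, 10 (55.6%) had an end called in all 4 libraries, and the difference from the other lists was not tested. Kcnq3, a neuronal potassium channel, was among these, with fold 2.70 and 2.77 in mutant, against 5.40 and 4.37 in wild type. Colec10, Oc90, Hhla1 and Col22a1 had no end called. Aard and Ccn4 had a peak that near in wild type 1 alone, although the region by Ccn4, 975 bp from its end, was itself called in all 4 libraries. Has2 and Tg, the thyroglobulin gene, had one in 1 mutant and both wild-type libraries. Tg spans Sla, so their regions are partly the same, and 20 of the 37 regions in its body were called in all 4 libraries. The 4 microRNA genes of the flanks, Mir28c, Mir30b, Mir30d and Mir151, had no region on them, and the nearest region of each lay 3482 to 13336 bp away.

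**Figure D5:**
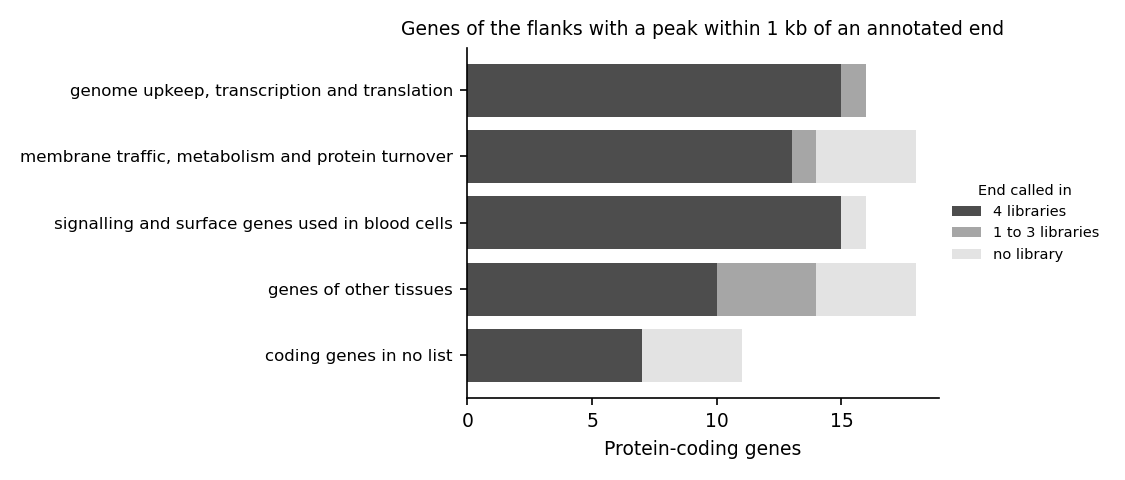
Protein-coding genes of the flanks by list, split by the number of libraries with a peak at most 1 kb from a gene end. The bars show 15 of 16, 13 of 18, 15 of 16, 10 of 18 and 7 of 11 genes called in all 4 libraries, from top to bottom.

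At the borders, 2 regions that cross a limit were left out, both called in all 4 libraries. The region over the start of Myc, chr15:61984140-61986019, had fold 3.36 and 3.69 in mutant and 3.83 and 4.02 in wild type. The other, at the far upstream border, had fold 2.301 and 2.26 in mutant and 2.53 and 2.76 in wild type. The member next to Myc, 1624 bp from its start, was called in all 4 libraries with fold 2.00 and 2.07 in mutant and 2.42 and 2.44 in wild type, as was the first region outside on the Myc side, 1007 bp away, with 1.96 and 1.94 in mutant and 1.94 and 1.88 in wild type. At the end of the domain the first member, 485 bp inside, lacked a peak in mutant 2, and so did not count as mutant-held, while the last region of the domain, 10116 bp outside, lacked one in mutant 1. The last members before the far downstream border, 114653 and 129786 bp from it, were called in wild type 1 alone.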

How the data were processed

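ATAC-seq peaks were called per library: each of the 4 DN3 samples has its own list. The submitters' processing notes name MACS2 2.1.1, SAMtools 1.7, Bowtie2 2.3.3.1 and cutadapt 1.16, and the build mm10 (GRCm38). Settings, read filters and any read shift for the transposase are not stated there. The deposited score is −log10 q times 10, truncated. The deposited fold is a ratio of pileup to local background per peak, and the deposited −log10 p and −log10 q describe a peak within its list. Fold was used to describe, rank or filter, never tested between lists.

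Peaks of the numbered chromosomes, X and Y were merged where they overlapped by 1 bp or more. A region's fold in a library is the highest of its peaks. Gene ends came from a RefSeq table of GRCm38.p6, which gives no strand, so either annotated end took the place of the planned gene start. Exons and untranslated regions were not annotated. Named regions were the 10 with the highest lower fold of each kind (wild-type-only ones at least 87 bp wide), the 5 widest, those at the borders and those at ends of listed genes. The bands by distance from the domain were chosen after their values were seen. Members, lists and tests were chosen with earlier results of these data known. Comparisons of libraries used exact permutation tests; shares have Clopper-Pearson intervals at 95%. Code was tested on simulated lists. Python 3.11.15, numpy 2.4.6, pandas 2.3.3, scipy 1.17.1 and matplotlib 3.10.9 were used.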

Additional observations from a re-analysis of the deposited data

How the results depend on the processing

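Shares and counts depend on the peaks that enter, and depth, which peak lists do not record, limits each of them. With peaks of fold 4 or more, weaker peaks did not count. A region called in 1 genotype could thus hold a weaker peak of the other. The share called only in mutant within 2 Mb of the domain was then 3.23%. Of regions of both wild-type libraries, 20.1% were called in wild type alone (19.7% over all regions), and every library held 240 flank regions. With equal numbers of peaks of lowest p, the share called only in mutant was 10.9% (6.99% over all regions), 18.6% within 2 Mb and 9.52% beyond, the share called only in wild type 3.70% (4.92% over all regions), and the difference in peak number, mutant minus wild type, turned to 69. With 50% cover these shares were 13.3% (7.46% over all regions), 27.2%, 10.7% and 16.7% (19.3% over all regions). In the 5 Mb nearest to the domain 450 regions were called in all 4 libraries, and 33 genes had an end called, since the stretch is shorter. Leaving out 1 library gave 5.14% to 7.77% only in mutant, 12.3% to 16.5% within 2 Mb and 3.72% to 6.11% beyond, and 14.7% to 20.2% only in wild type. For the other moves the cause was not tested. The share called only in mutant was above that of all regions in 11 of 11 settings, and the share called only in wild type below it in 10 of 11, the exception being fold 4 or more.

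Mutant and wild-type libraries share replicate numbers. With a replicate block, a sign-flip test over the 2 numbered pairs, the difference in peak number was -214 with an exact p of 0.5, the smallest that 2 pairs allow. Differences between replicates in log2 fold correlated at -0.0675 between genotypes over 102231 shared regions, so the numbers were not taken to pair the libraries.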
